A study of Drosophila melanogaster with 2 samples.

Results

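Smart-seq2 wells of a single set of libraries were compared, those annotated as attached hemocytes of tumorous salivary glands and those whose label ends in _C. The attached wells comprised 40 Ras and 21 P35;Ras cells. The other kind comprised 5 Ras_C, 4 p35Ras_C and 8 w1118_C wells. These 78 of the 463 wells of the series were chosen by their annotation and by no measured value. The labels and the paper's text do not say what _C stands for, so the question was whether these wells hold hemocytes, whether they carry the transcripts of the gland, and how far they resemble the circulating cells of the same study.

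Per the labels, the stocks had a w1118 background, with Beadex MS1096-Gal4 as the driver used to express transgenes in the salivary gland and EaterDsRed as a fluorescent label of plasmatocytes. Ras stands for UAS-RasV12, P35;Ras adds p35, a baculovirus inhibitor of effector caspases, and w1118 stands for the driver without these transgenes. The attached cells were lifted off several dissected glands of a genotype with a capillary under a fluorescence microscope, and the circulating cells (127 Ras, 126 P35;Ras and 127 w1118) were bled from larvae and sorted. The annotation does not tie a well to a gland or a larva, and how the _C wells were taken is not given in the sources used here. Wells are therefore not treated as replicates of a condition, no test between groups was possible, and the intervals given cover counting error only. The age of these larvae was not given in the sources used here.

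Plasmatocytes are the macrophage-like blood cells of Drosophila. They carry phagocytic receptors such as NimC1 and eater and secrete basement membrane collagen, while crystal cells store the prophenoloxidases used for melanization and lamellocytes encapsulate large targets. The salivary gland of the late larva makes glue proteins (Sgs) in very large amounts, and the fat body makes the larval serum proteins and most antimicrobial peptides. Transcripts of glue or serum proteins in a hemocyte library therefore belong to another tissue's known products.

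The wells differed widely in depth. Attached Ras wells held between 261607 and 58927908 reads on genes (median 11146487), attached P35;Ras wells between 383877 and 29224891 (median 10960292), and _C wells between 195990 and 26105850 (median 7313193). There were 6 wells with fewer than 1000000 reads, namely attached Ras well 1, attached P35;Ras wells 6 and 20, Ras_C well 3 and w1118_C wells 3 and 6. They stood apart from the rest. Thinned at random to 195990 reads, these 6 wells showed between 5604 and 6322 genes, against a median of 4239 genes in the other attached wells and of 3255 in the other _C wells. Mitochondrial genes took a median of 2.19% of the reads in Ras, 4.39% in P35;Ras, 10.3% in Ras_C, 5.11% in p35Ras_C and 5.16% in w1118_C wells, and 3 of the 5 Ras_C wells lay above 10%. Values of the shallow wells are named where they bear on a result.

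The _C wells held plasmatocyte transcripts throughout. All 8 plasmatocyte markers examined (the receptors NimC1 and eater, the clotting protein Hml, the peroxidase Pxn, the surface protein He, the GATA factor srp and the collagens Col4a1 and vkg) had at least 1 read in each of the 17 _C wells and in each of the 61 attached wells. Glue genes were also read in each of the 17 _C wells, so the presence of a read alone does not show that a well held a hemocyte. Summed over the 8 genes, Ras wells had 264 CPM at the lowest, a median of 7780 and 35284 CPM at the highest, where CPM are reads per 1000000 reads of the well. Ras_C wells had 7953, 13050, 13511, 6469 and 3991 CPM, so that all Ras_C wells lay inside the range of Ras wells, and 13 of 40 Ras wells lay above and 8 below all Ras_C wells. P35;Ras wells ranged from 665 to 23548 CPM with a median of 8274, against 27001, 26311, 10893 and 19965 CPM in the 4 p35Ras_C wells. Here 12 of 21 attached wells lay below the lowest p35Ras_C well and none above the highest. The 8 w1118_C wells had between 3555 and 21667 CPM (median 5570). Low outliers were found among attached cells and not among _C wells, since 35 of 40 Ras, 19 of 21 P35;Ras and 17 of 17 _C wells reached 1000 CPM. The 17 include the shallow Ras_C well 3 and w1118_C wells 3 and 6, with 2648, 4746 and 2262 plasmatocyte reads. Spearman correlations with the pooled reads of all other wells were 0.779, 0.830 and 0.802 in these, and at most 0.745 in other _C wells. The other 14 _C wells had at least 3555 CPM.

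With the reads of a group pooled, the plasmatocyte genes summed to 10688 CPM in Ras and 6968 CPM in Ras_C wells, a log2 ratio of 0.62 (95% counting interval 0.61 to 0.62), and to 11232 CPM in P35;Ras and 22557 CPM in p35Ras_C wells, a log2 ratio of -1.01. The ratio thus had opposite signs in the 2 genotypes. With trimmed-mean (TMM) factors, which moved all log2 ratios of the Ras pair by -1.13 and those of the P35;Ras pair by 0.09, the Ras pair also came out below 0, at -0.51. NimC1 (FBgn0259896, 2L:13973158-13976769), a phagocytosis receptor, was the most even of the 8 genes. It had 1220 CPM in Ras and 1222 CPM in Ras_C wells, and 1546 CPM in P35;Ras and 1506 CPM in p35Ras_C wells, with 1275 CPM in w1118_C wells. He (FBgn0028430, 2L:13972096-13972947), the gene of the pan-hemocyte surface protein Hemese, was the only one of the 8 that was lower in attached cells by a log2 ratio of 1 or more in both pairs. It had 722 CPM in Ras against 2034 CPM in Ras_C wells (log2 -1.49) and 810 CPM in P35;Ras against 2085 CPM in p35Ras_C wells (log2 -1.36), although Ras_C well 1 had 205 CPM. Genes are called tested where they reached 50 CPM in the group where they were higher and were read in 50% or more of that group's wells, although no significance test was made. Across all genes tested in both pairs, 9.64% were lower and 14.1% higher by that margin, and none of the 8 was higher in both. Within the pairs, 5 of the 8 were higher and 1 lower in Ras than in Ras_C wells, where 39.4% of all genes were higher, and 5 of the 8 were lower and none higher in P35;Ras than in p35Ras_C wells, where 37.0% of all genes were lower.

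Hml (FBgn0029167, 3L:13846054-13860001), which encodes a large clotting protein of plasmatocytes, differed between the genotypes of the _C wells. It had 3052 CPM in the pooled P35;Ras wells and 7269 CPM in p35Ras_C wells (log2 -1.25), and 2016 CPM in Ras and 1952 CPM in Ras_C wells. In the 8 w1118_C wells it was at 68.7, 66.5, 2566, 5066, 692, 2076, 52.6 and 5.80 CPM, so 4 of these wells were below 100 CPM. The lowest p35Ras_C or Ras_C well had 264 CPM. The collagen genes had opposite signs in the pairs. Col4a1 had 2472 CPM in Ras and 540 CPM in Ras_C wells, and 1731 CPM in P35;Ras and 5295 CPM in p35Ras_C wells. A wider list of 16 hemocyte genes (scavenger receptors, Nimrod proteins, laminins) had log2 ratios of -0.29 for the Ras pair and -0.72 for the P35;Ras pair. Ras85D, the fly gene behind the UAS transgene, had 691 CPM in Ras and 157 CPM in Ras_C wells, and 676 CPM in P35;Ras and 707 CPM in p35Ras_C wells, with 534 CPM in w1118_C wells. The count tables do not separate a transgenic from an endogenous transcript.

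Markers of the other hemocyte classes were read next, because a gland or a blood sample could hold them. The lamellocyte gene atilla stayed at or below 5.31 CPM in every group of the set, and lz, the transcription factor that specifies crystal cells, at or below 0.77 CPM. The prophenoloxidases gave a different picture in each genotype. PPO1 reached a median of 8.32 CPM in Ras wells and 1658 CPM at the highest, against 1554, 2670, 1918, 5469 and 2978 CPM in the 5 Ras_C wells. PPO1 in P35;Ras wells ran from 0 to 21924 CPM with a median of 189, against 265, 179, 58.7 and 59.7 CPM in p35Ras_C wells. The gene was therefore high in every Ras_C well, low in every p35Ras_C well, and spread over the attached P35;Ras wells.

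Summed over the 5 crystal cell genes, the level was 511 CPM in Ras and 10002 CPM in Ras_C wells, 19.6-fold lower in attached wells (log2 -4.29, and -2.99 without Ras_C well 4, which held 95.4% of the PPO2 reads of its group). In the other genotype it was 14858 CPM in P35;Ras and 380 CPM in p35Ras_C wells, 39.2-fold higher in attached wells (log2 5.29, and 6.22 without p35Ras_C well 1). By well, 36 of 40 Ras wells lay below all Ras_C wells, while 9 of 21 P35;Ras wells lay above and 6 below all p35Ras_C wells. The median was 620 CPM over P35;Ras wells, and wells 2, 5 and 17 held 82.7% of their reads of these genes (3290 CPM without these 3 wells). Wells 2 and 5 were closely alike, with 72914 and 76914 CPM of crystal cell genes and 3385 and 3184 CPM of plasmatocyte genes. They also had 26086 and 23936 CPM of fat body genes, and 2140 and 2113 genes when thinned. Whether these 2 wells hold separate cells was not tested. Of the 5 genes, PPO1, PPO2 and CG17109 could be tested, and all 3 were lower in attached cells in the Ras pair (background 27.0%) and higher in the P35;Ras pair (background 26.5%). PPO genes were high without lz, so the label crystal cell is not applied to these wells. The w1118_C wells summed to 462 CPM, with 1955 CPM in well 1 and 14.3 CPM in well 7. The shallow w1118_C wells 3 and 6 had 1466 and 4326 CPM, from 588 and 992 reads. Well 6 thus lay inside the range of Ras_C wells, whose shallow well 3 had 4908 CPM from 962 reads. Whether these reads of shallow wells came from the cells in them was not tested.

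**Figure D1:**
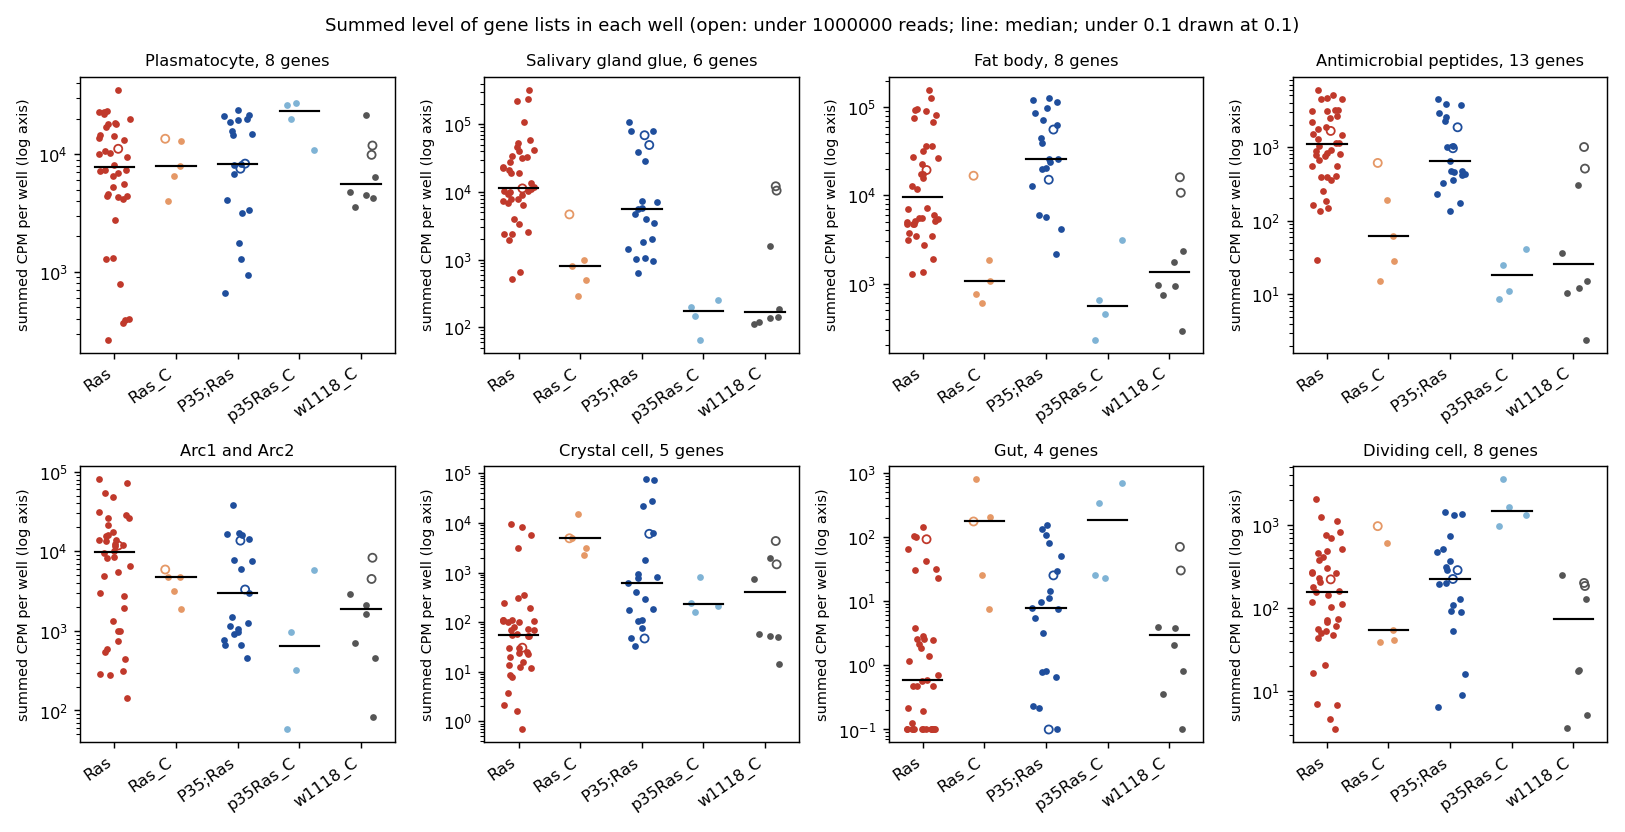
Summed CPM of gene lists in each well (log axis), by group, with open symbols for wells under 1000000 reads and a line at the median. The plasmatocyte genes overlap between attached and _C wells, whereas glue genes of all 21 P35;Ras wells lie above all 4 p35Ras_C wells. The crystal cell genes are high in all 5 Ras_C wells, the shallow one included, and also in the shallow w1118_C well 6.

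The resemblance of the _C wells to circulating cells was then examined, since those cells were taken from the hemolymph. Over 7249 genes, the levels in pooled w1118_C wells had a Spearman correlation of 0.762 with circulating w1118 cells, 0.736 with circulating Ras cells and 0.691 with circulating P35;Ras cells. For p35Ras_C the order was turned, with 0.728 for circulating P35;Ras, 0.717 for circulating Ras and 0.676 for circulating w1118 cells. Ras_C wells had 0.638 with circulating Ras, 0.629 with circulating P35;Ras and 0.612 with circulating w1118 cells. Each _C group was thus nearest, among circulating cells, to those of its own genotype, by small margins. Pooled attached Ras wells were also nearest to circulating Ras cells (0.760), and attached P35;Ras wells had 0.675 with circulating Ras and 0.674 with circulating P35;Ras cells. The pools of 40 Ras and 5 Ras_C wells differ in size, so their values are not on equal terms. Over 6275 genes, single Ras wells had between 0.546 and 0.841 with circulating Ras cells. Ras_C wells lay inside that range, at 0.670, 0.683, 0.712, 0.627 and 0.687. Ras_C wells had 0.650 with attached Ras wells, above their 0.638 with circulating Ras cells, whereas p35Ras_C wells had 0.567 with attached P35;Ras wells. The plasmatocyte sum was lower in _C wells than in circulating cells of their genotype in all 3 cases (log2 -1.87 for Ras_C, -0.49 for p35Ras_C and -1.54 for w1118_C). The correlations run across genes in libraries of different depth and read length, and they are given as descriptions. Well by well, 5 of 5 Ras_C wells were nearest to circulating Ras, 2 of 4 p35Ras_C wells to circulating P35;Ras (the other 2 to Ras), and 6 of 8 w1118_C wells to circulating w1118. Of the attached wells, 19 of 40 Ras and 3 of 21 P35;Ras wells were nearest to circulating cells of their own genotype.

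The genotypes could also be read from genes that separate them in circulation. In circulating cells 61 genes were higher in P35;Ras and 46 higher in w1118 by a log2 ratio of at least 3, and these genes were chosen without the attached set. Of the 61 genes, 57 were at least 2-fold higher in p35Ras_C than in w1118_C wells and 1 was at least 2-fold lower, where 37.5% of 3590 genes tested were higher. Of the 46 genes, 43 were at least 2-fold lower in p35Ras_C than in w1118_C wells and 1 was at least 2-fold higher, where 27.3% of the genes tested were lower. The opposite-going genes were CG10126 among the 61, with 2.70 CPM in p35Ras_C and 80.3 CPM in w1118_C wells, and the transcription factor gene jing among the 46, with 68.2 CPM in p35Ras_C and 0.618 CPM in w1118_C wells. CG10126 was highest in w1118_C well 7 (664 CPM). Wells 3, 4, 5 and 6 of that group had 130, 20.9, 30.2 and 183 CPM, and wells 1, 2 and 8 had 3.01, 3.09 and 0.407 CPM. The highest p35Ras_C well had 7.68 CPM of CG10126. The gene jing was highest in p35Ras_C wells 1 and 4 (129 and 85.9 CPM, against 2.40 and 2.05 CPM in wells 2 and 3). The median log2 ratio was 5.43 for the 61 genes and -6.65 for the 46, beside 0.36 for all genes tested. In Ras_C against w1118_C wells, 44 of the 61 were higher (background 29.7%) and 40 of the 46 lower (background 37.4%). Most of these genes thus differed between _C groups in the direction they have between circulating cells. Both contrasts share the w1118_C wells. The 61 and 46 genes were counted without the minimum of 50 CPM that the genes tested had to pass, so the shares stand at unlike thresholds. Some of them were near 0 in both groups. CG18088 had 2.42 CPM in p35Ras_C and 0.0843 CPM in w1118_C wells, and Reck 0.0397 and 0.141 CPM.

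Among the genes of circulating P35;Ras cells, ninaD, a scavenger receptor of the carotenoid pathway, had 291 CPM in p35Ras_C and 1.05 CPM in w1118_C wells. Sr-CIV, a scavenger receptor of hemocytes, had 190 CPM in p35Ras_C, 279 CPM in Ras_C and 1.71 CPM in w1118_C wells, and Ggamma30A, a G protein subunit, had 1072 CPM in p35Ras_C and 7.14 CPM in w1118_C wells. In the opposite direction, CG34296 had 0.595 CPM in p35Ras_C and 597 CPM in w1118_C wells, and the small heat shock gene Hsp26 had 1.73 CPM in p35Ras_C and 548 CPM in w1118_C wells.

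The log2 ratio of the summed CPM of the 61 genes over that of the 46 genes gave 1 value per well. It was 4.65, 4.87, 4.97 and 5.53 in p35Ras_C wells, -3.90, 3.26, 1.32, 2.43 and 2.16 in Ras_C wells, and between -6.92 and -1.55 (median -5.71) in w1118_C wells. No p35Ras_C well overlapped with a w1118_C well, and Ras_C well 1 lay within the w1118_C range. The highest 2 w1118_C values came from the shallow wells 3 and 6, and without them the range was -6.92 to -3.42. In circulating cells the medians were 3.52 for P35;Ras, 1.74 for Ras and -5.85 for w1118. Attached wells lay between these groups, with medians of 0.71 in P35;Ras (range -1.23 to 2.03) and 0.53 in Ras wells (range -2.78 to 2.38), and their genotypes overlapped. In P35;Ras against Ras wells, 28 of the 61 genes were higher (background 18.2%) and 23 of the 46 lower (background 19.5%).

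**Figure D2:**
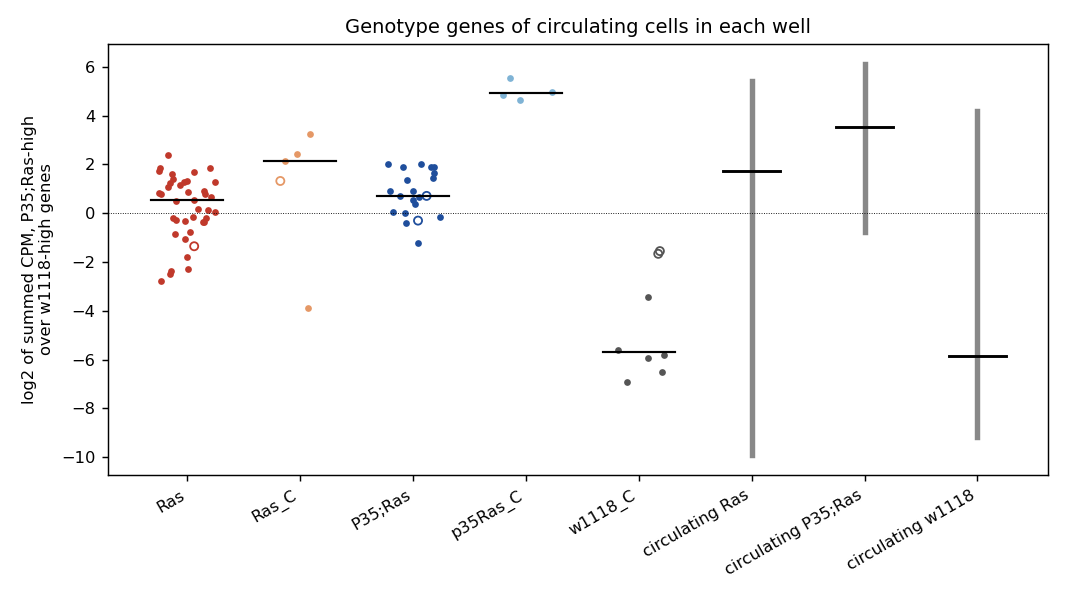
Log2 ratio of the summed CPM of 61 genes higher in circulating P35;Ras cells over 46 genes higher in circulating w1118 cells, for each well of the attached set and for circulating cells (points are wells, open under 1000000 reads, lines are medians, and grey bars are the range over circulating cells). The p35Ras_C wells lie between 4.65 and 5.53 and the w1118_C wells between -6.92 and -1.55, while attached P35;Ras wells (-1.23 to 2.03) lie inside the range of attached Ras wells (-2.78 to 2.38).

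Small heat shock genes are members of the 46 and weigh on the score of Ras_C well 1, so their values are part of that score and not a second measure. Hsp23 (FBgn0001224, 3L:9381882-9382765), a small heat shock protein, had a median of 381 CPM in Ras wells (62.9 to 27756), against 18857, 56.6, 1643, 177 and 79.0 CPM in Ras_C wells 1 to 5, the third being the shallow well. In P35;Ras wells the median was 733 CPM (40.5 to 5019), against 64.1 to 142 CPM in the 4 p35Ras_C wells. The 8 w1118_C wells had between 2449 and 20046 CPM. Circulating cells had 4873 CPM of Hsp23 in Ras, 122 CPM in P35;Ras and 8725 CPM in w1118. Pooled, _C wells had 1333 CPM in Ras_C, 92.8 CPM in p35Ras_C and 10058 CPM in w1118_C. The Ras_C value rested on well 1 and was 138 CPM without it, and Ras_C well 2 lay below and well 5 inside the p35Ras_C range. The median of attached P35;Ras wells lay above all p35Ras_C wells. Over the 12 heat shock genes the log2 ratio of the Ras pair was 1.66 and depended on single wells, with 3.42 without Ras_C well 1, 0.88 without Ras_C well 4 and -0.018 with equal weight for each well. That of the P35;Ras pair was 0.90, and 1.90 without p35Ras_C well 3. The reads of the near-identical Hsp70 copies were close to 0 in all groups, and no option for reads with several alignments was set, so these copies cannot be judged.

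Glue genes separated attached from _C wells. Sgs7 (FBgn0003377, 3L:11509861-11510247) had a median of 5187 CPM in Ras wells (246 to 279791), against 733, 411, 1520, 142 and 627 CPM in Ras_C wells. In P35;Ras wells the median was 1960 CPM (259 to 89892), against 29.3, 149, 70.8 and 118 CPM in p35Ras_C wells. All P35;Ras wells were above all p35Ras_C wells. Pooled over the 6 glue genes, the level was 31725 CPM in Ras and 515 CPM in Ras_C wells, a 61.7-fold difference (log2 5.95, 5.93 to 5.96), and 19580 CPM in P35;Ras and 147 CPM in p35Ras_C wells, a 133-fold difference (log2 7.06, 7.02 to 7.09). The w1118_C wells had 330 CPM, and circulating cells had 0.476 CPM in Ras, 0.361 CPM in P35;Ras and 0.0623 CPM in w1118. All glue genes that could be tested were higher in attached cells, 5 of 5 in the Ras pair (background 39.4%) and 4 of 4 in the P35;Ras pair (background 26.5%). With the shallow wells included, 32 of 40 Ras wells lay above all Ras_C wells, and among wells of at least 1000000 reads 37 of 39 did.

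The glue reads of _C wells covered a narrower range than their depth. The 17 _C wells held between 915 and 9766 glue reads each, a 10.7-fold range, while their total reads covered a 133-fold range and their plasmatocyte reads a 177-fold range. Among Ras_C wells, from the shallowest to the deepest, glue reads numbered 915, 3075, 3715, 9766 and 7618, so they were fewer in the shallower wells of this group. They numbered between 959 and 2492 in p35Ras_C and between 992 and 7691 in w1118_C wells. The shallow w1118_C wells 3 and 6 had 4206 and 2790 glue reads, more than w1118_C well 1 with 992 and well 2 with 1327. In CPM the shallow _C wells therefore look rich in glue transcripts (4669, 10487 and 12167 CPM), while the other 14 _C wells had between 64.6 and 1578 CPM.

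The mean _C well was also set against the reads of the same gene summed over attached wells, for genes with at least 20000 of these. The median glue gene had 154 reads per 1000000 in the mean _C well (quartiles 150 and 158), and the value was 372 for fat body genes (325 to 465) and 206 for antimicrobial peptide genes (124 to 807). It was 12459 for plasmatocyte genes (10920 to 14324) and 13471 for housekeeping genes. A set of 51 genes under 0.1 CPM in circulating cells had between 931 and 6906 reads per _C well. These 51 had to reach 50 CPM in attached cells, so that their low share in _C wells is partly fixed by the choice. Some Jonah digestive proteases, which circulating cells also nearly lack, were higher in Ras_C and p35Ras_C wells than in attached wells. Pooled w1118_C wells had at most 1.01 CPM of each of the 5 Jonah genes tested in both pairs. By label, the 51 genes had a median of 2290 reads in Ras_C, 1886 reads in p35Ras_C and 2453 reads in w1118_C wells, whose flies had no RasV12 tumor by their label. Whether glue reads came from the cells in the _C wells was not tested.

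**Figure D3:**
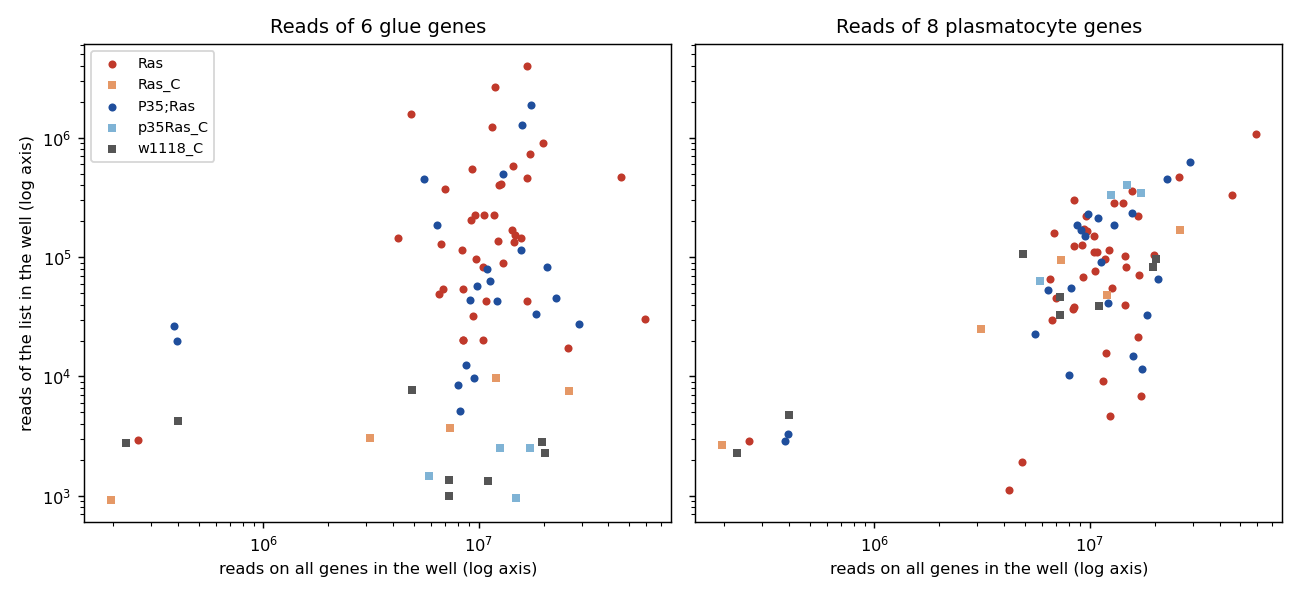
Reads of gene lists in each well against the total reads of the well (both axes logarithmic), with circles for attached and squares for _C wells. Plasmatocyte reads of _C wells follow the depth over a 177-fold range, whereas their glue reads stay between 915 and 9766.

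Fat body transcripts resembled the glue genes. Lsp1beta (FBgn0002563, 2L:898500-901316), a larval serum protein gene, had a median of 2159 CPM in Ras wells (340 to 46469), against 611, 209, 7485, 248 and 225 CPM in Ras_C wells, the highest being the shallow well. In P35;Ras wells the median was 9291 CPM (687 to 45992), against 67.7, 68.3, 2222 and 269 CPM in p35Ras_C wells. Only p35Ras_C well 3 overlapped with attached cells of its genotype. The 8 fat body genes summed to 24078 CPM in Ras and 859 CPM in Ras_C wells (28.0-fold, log2 4.81), and to 48471 CPM in P35;Ras and 777 CPM in p35Ras_C wells (62.4-fold, log2 5.96, and 6.70 without p35Ras_C well 3). With equal weight for each well, the shallow one included, the Ras pair gave 2.78. Of the 8 genes 7 could be tested, and all 7 were higher in attached cells in both pairs (background 14.1%). Circulating cells had between 54.2 and 74.8 CPM.

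Antimicrobial peptide genes that could be tested were mostly higher in attached cells, namely 5 of 6 in the Ras pair (background 39.4%) and both in the P35;Ras pair (background 26.5%), out of 13 on the list. Apart from Mtk in Ras_C wells, none of the 13 reached 50 CPM in Ras_C or p35Ras_C wells. The filter therefore admitted the others only through attached wells, so these counts are no finding. Drs (FBgn0283461, 3L:3369556-3369942), which encodes the antifungal peptide Drosomycin, had a median of 683 CPM in Ras wells (9.20 to 4527), against 40.8, 23.3, 536, 6.55 and 11.1 CPM in Ras_C wells. In P35;Ras wells Drs had a median of 518 CPM (115 to 3478), against 5.39, 5.12, 31.3 and 19.3 CPM in p35Ras_C wells, without overlap. In reads, the 17 _C wells held between 27 and 1428 of Drs. The list of 13 peptide genes summed to 1515 CPM in Ras and 117 CPM in Ras_C wells (log2 3.69, and 5.60 without Ras_C well 4), and to 1303 CPM in P35;Ras and 18.8 CPM in p35Ras_C wells (log2 6.12). The one that broke the pattern was Mtk, encoding Metchnikowin, with 65.6 CPM in Ras and 82.4 CPM in Ras_C wells. Ras_C well 4 held 87.6% of its group's reads of the 13 genes, and the Mtk exception rested on that well. The fat body is known to make such peptides, and the fat body and glue lists were high in the same groups of wells. Their part in the peptide values was not tested.

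Clotting and chitinase-like genes split by member. fon (fondue), a clot protein, had 438 CPM in Ras and 10.2 CPM in Ras_C wells, and 1257 CPM in P35;Ras and 5.19 CPM in p35Ras_C wells. In reads of fon, the _C wells held between 26 and 158 each. Idgf4, a chitinase-like growth factor, had 241 CPM in Ras and 6.44 CPM in Ras_C wells, and 875 CPM in P35;Ras and 3.17 CPM in p35Ras_C wells. Idgf3 differed less, at 994 CPM in Ras and 685 CPM in Ras_C wells, and 1149 CPM in P35;Ras and 643 CPM in p35Ras_C wells. Of the 6 clotting and Idgf genes tested in both pairs, fon and Idgf4 were the 2 that were higher by a log2 ratio of 1 or more in both (background 14.1%). Both lay far below 50 CPM in these _C wells, so the filter admitted them only through attached wells. The list as a whole had log2 ratios of -0.72 in the Ras and 0.56 in the P35;Ras pair.

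Arc1, the fly relative of the capsid-forming neuronal gene Arc, was high in attached cells and also in _C wells. It had a median of 9745 CPM in Ras wells (145 to 81064), against 4829, 1859, 5914, 3141 and 4798 CPM in Ras_C wells. In P35;Ras wells it had a median of 2984 CPM (462 to 38582), against 326, 57.7, 5901 and 975 CPM in p35Ras_C wells. The groups overlapped in both genotypes. With Arc2 added, 24 of 40 Ras wells lay above and 11 below all Ras_C wells, and the pooled levels were 13248 CPM in Ras and 3477 CPM in Ras_C wells (log2 1.93), and 7327 CPM in P35;Ras and 1128 CPM in p35Ras_C wells (log2 2.70, and 3.87 without p35Ras_C well 3). The Ras_C wells exceeded circulating Ras cells (232 CPM) 15.0-fold, p35Ras_C exceeded circulating P35;Ras (99.0 CPM) 11.4-fold, and w1118_C at 1379 CPM exceeded circulating w1118 (66.4 CPM) 20.8-fold. In this gene the _C wells stood between attached and circulating cells. Circulating cells were sequenced in other libraries with other cycle numbers and read lengths, so the kind of library and the kind of cell cannot be told apart in that comparison.

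Targets of JNK signalling, a stress pathway, differed in the Ras pair. puc, the feedback phosphatase of JNK, had 236 CPM in Ras and 5.00 CPM in Ras_C wells, and Mmp1, a matrix metalloproteinase, had 558 CPM in Ras and 119 CPM in Ras_C wells. In the other pair puc had 35.5 CPM in P35;Ras and 68.6 CPM in p35Ras_C wells, where well 4 held 82.8% of the group's reads. Mmp1 was at 406 CPM in w1118_C wells, where well 8 held 78.7% of the group's reads of the 8 JNK target genes. The 8 genes had log2 ratios of 2.85 in the Ras pair and 0.65 in the P35;Ras pair, the second being 2.46 without p35Ras_C well 4.

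Genes of dividing cells were higher in the p35Ras_C wells. Summed over 8 genes the level was 376 CPM in P35;Ras and 2098 CPM in p35Ras_C wells (log2 -2.48, and -1.82 without p35Ras_C well 4). The 4 p35Ras_C wells had 1626, 974, 1326 and 3580 CPM, and 18 of 21 P35;Ras wells lay below all of them. Of the 8 genes 7 were lower in attached cells (background 37.0%), among them stg, the Cdc25 phosphatase that triggers mitosis, with 22.0 CPM in P35;Ras and 569 CPM in p35Ras_C wells. p35Ras_C well 3 had 5.99 CPM of stg. The exception was Mcm2, a helicase subunit, with 166 CPM in P35;Ras and 72.2 CPM in p35Ras_C wells. In the Ras pair the sum was 310 CPM in Ras and 347 CPM in Ras_C wells (log2 -0.16, and 2.63 without Ras_C well 4, which had 604 CPM). The w1118_C wells had 114 CPM. Circulating cells had 1205 CPM in P35;Ras, 774 CPM in Ras and 261 CPM in w1118, and p35Ras_C wells were likewise the highest of the _C groups. The order of the other _C groups rested on Ras_C well 4, without which Ras_C wells had 50.2 CPM, below w1118_C wells.

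Some digestive proteases were higher in _C than in attached wells of both genotypes, with overlap in single wells. Jon99Fi (FBgn0039778, 3R:30488963-30489895), a Jonah serine protease of the midgut, had a median of 0 CPM in Ras wells (highest 30.9), against 4.50, 8.34, 61.2, 42.4 and 333 CPM in the 5 Ras_C wells, of which wells 1 and 2 lay below the highest Ras well. In P35;Ras wells the median was also 0 CPM (highest 1.44), against 51.3, 15.1, 787 and 304 CPM in the 4 p35Ras_C wells, without overlap. It was not read in 5 of 8 w1118_C wells, and reached 43.6 CPM in the shallow well 6 by 10 reads. Pooled, Jon99Fi had 0.796 CPM in Ras and 107 CPM in Ras_C wells (log2 -7.07, and -5.35 without Ras_C well 5), and 0.138 CPM in P35;Ras and 214 CPM in p35Ras_C wells (log2 -10.60, and -9.97 without p35Ras_C well 3). Circulating cells had no read of Jon99Fi.

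Of 16 genes named as Jonah proteases, 5 could be tested in both pairs, and all 5 were lower in attached cells (background 9.64%). None of the 5 exceeded 9.27 CPM in an attached group, so they passed the minimum of 50 CPM only through _C wells. Their shared direction was thus fixed by the filter and is no finding. Low-level members did not all do so. Jon65Aiii had 19.5 CPM in Ras and 0.492 CPM in Ras_C wells, and 23.5 CPM in P35;Ras and 3.83 CPM in p35Ras_C wells (log2 5.30 and 2.62), and Jon25Bii had 2.79 CPM in Ras and 8.29 CPM in P35;Ras wells, with 2 reads in Ras_C and 2 reads in p35Ras_C wells. Jon66Ci had 9.27 CPM in Ras and 623 CPM in Ras_C wells (log2 -6.07, and -3.91 without Ras_C well 5), and 8.16 CPM in P35;Ras and 200.5 CPM in p35Ras_C wells (log2 -4.62, and -2.84 without p35Ras_C well 4). Jon25Biii gave -7.05 in the Ras pair, of which Ras_C well 5 held 99.0% of the reads (-0.85 without it), and -10.32 in the P35;Ras pair (-8.59 without p35Ras_C well 4). Over the 4 gut markers (Amy-p, Jon65Aiii, Jon99Ciii and Jon25Bii), of which only Jon99Ciii could be tested, the level was 26.5 CPM in Ras and 241 CPM in Ras_C wells (log2 -3.19, -1.18 without Ras_C well 5 and -0.019 in wells with at most 10% mitochondrial reads), and 34.0 CPM in P35;Ras and 208 CPM in p35Ras_C wells (log2 -2.61). The w1118_C wells had 2.19 CPM. By well, 31 of 40 Ras wells lay below all Ras_C wells and 14 of 21 P35;Ras wells below all p35Ras_C wells, and no attached well lay above all of them. Single attached wells did exceed the lower _C wells, since Ras wells reached 140 CPM, against 7.39 CPM in Ras_C well 1, and P35;Ras wells 153 CPM, against 23.1 CPM in p35Ras_C well 1. Ras_C well 5 also had the highest mitochondrial share of the 17 wells, 21.2%, and the values without it are those given above.

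**Figure D4:**
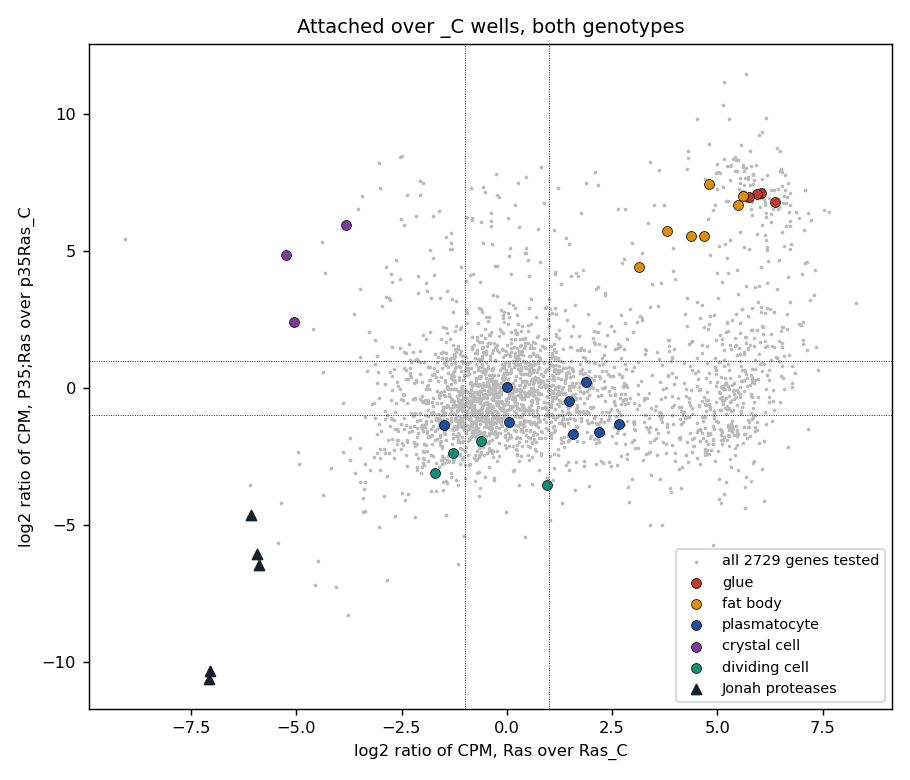
Log2 ratio of pooled CPM for the 2729 genes tested in both pairs, Ras over Ras_C on the horizontal and P35;Ras over p35Ras_C on the vertical axis, with members of gene lists in colour. Glue and fat body genes lie at the upper right, the 5 Jonah proteases tested in both at the lower left, and prophenoloxidases at the upper left.

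The whole transcriptome gives the scale for these lists. In the Ras pair 1347 of 3419 genes (39.4%) were at least 2-fold higher and 923 (27.0%) at least 2-fold lower in attached cells. In the P35;Ras pair 984 of 3717 (26.5%) were higher and 1374 (37.0%) lower. Of 2729 genes tested in both, 384 (14.1%) were higher and 263 (9.64%) lower in both, while 293 were higher in Ras and lower in P35;Ras wells and 101 the reverse. A log2 ratio of 4 or more was reached by 563 of these genes (20.6%) in the Ras pair and by 254 (9.31%) in the other pair. Of the 563 genes, 299 were not 2-fold higher in the other pair, and they had a median of 2.48 CPM in Ras_C wells, against 55.4 CPM in w1118_C wells. They included genes that most cells use, such as Arp2, a subunit of the actin-nucleating complex, with 251 CPM in Ras and 6.75 CPM in Ras_C wells, beside 230 CPM in p35Ras_C wells. Among Ras_C wells Arp2 was low in 4 (13.8, 13.95, 2.53 and 4.66 CPM), while the shallow well 3 had 316 CPM. Of the 299 genes, 296 had at least 10 CPM in circulating Ras cells, as 94.8% of all genes tested in both pairs did. The genes were picked by their low level in Ras_C wells relative to Ras wells, so that level is no finding. Without Ras_C well 4 the number at a log2 ratio of 4 or more was 940 in place of 563. The split of the shared genes depended on scaling, with 258 higher and 456 lower under TMM factors, and the number of lower genes was 165 without Ras_C well 4. Differences of this size were as frequent between _C groups. Between p35Ras_C and Ras_C wells 1482 of 3498 genes (42.4%) were higher and 869 (24.8%) lower.

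The 384 genes higher in attached cells held more genes that circulating cells lack. Of them 72 (18.8%) were below 1 CPM in both circulating Ras and circulating P35;Ras cells, against 6 of the 263 lower genes (2.28%) and 80 of all 2729 (2.93%). Each of the 2729 had to reach 50 CPM in a group of both pairs. Genes that circulating cells lack thus entered only through wells where they were high, and the 2.93% is shaped by that filter. The 10 genes with the largest ratio in both pairs were Ag5r, CG4267, Cyp4d1, nrv2, Agxt, Nepl10, CG31698, CG33493, DptB and CG32280. Ag5r, an antigen 5-related secreted protein, had 1624 CPM in Ras and 12.0 CPM in Ras_C wells (log2 7.09, and 6.31 without Ras_C well 4), and 499 CPM in P35;Ras and 3.33 CPM in p35Ras_C wells (log2 7.23). Cyp4d1, a cytochrome P450, had log2 ratios of 6.74 (6.14 without Ras_C well 4) and 7.12, and DptB, the antibacterial peptide Diptericin B, of 6.60 and 7.21. nrv2, a subunit of the sodium pump, was unlike the others in that w1118_C wells had 237 CPM, close to the 265 CPM of Ras and 183 CPM of P35;Ras wells, while Ras_C had 2.56 and p35Ras_C 1.03 CPM.

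The 10 genes with the smallest ratio in both pairs often rested on single wells. They included Jon99Fi, Jon25Biii, Jon66Ci, Jon99Cii and Jon99Ciii together with Ag5r2, a neighbour of Ag5r on the X chromosome whose ratio had the opposite sign (log2 -5.44, and -3.58 without Ras_C well 5, and -5.65, and -4.76 without p35Ras_C well 4). The others were Claspin, Grip71, Marcal1 and PGS1. Claspin, a checkpoint protein of DNA replication, had a log2 ratio of -4.55 in the Ras pair that was 0.88 without Ras_C well 4, while in the other pair it had -7.20, and -6.03 without p35Ras_C well 1. Grip71, a subunit of the gamma-tubulin ring complex, had -4.48 and -6.31, and these were -1.35 without Ras_C well 5 and -0.24 without p35Ras_C well 3. Marcal1, an annealing helicase, had -5.35 in the Ras pair and -0.52 without Ras_C well 4, and -4.18 in the other pair, with -3.51 without p35Ras_C well 3. PGS1 had -4.05 and -7.27, and 1.13 without Ras_C well 4 and -0.79 without p35Ras_C well 2. Jon99Cii and Jon99Ciii had log2 ratios of -5.93 and -5.88 in the Ras pair, which were -3.16 and -3.85 without Ras_C well 5, and of -6.06 and -6.47 in the P35;Ras pair.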

How the data were processed

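Single attached hemocytes and _C wells were prepared with Smart-seq2, without molecular identifiers, and read from both ends. The authors aligned reads with STAR 2.7.2 to Dm6 and counted them per gene with featureCounts 2.0.0 (annotation r6.37), and deposited raw counts per gene and well, per the file headers. The command in the header sets neither strand nor pairs nor multiple alignments, so each mate is a count, and paralogs and overlapping genes are uncertain. Of 17612 gene identifiers 17549 had a name. The deposited annotation of wells gave the groups, and its cluster numbers were not used. GEO's labels of this sample name RasV12 in the title and p35 as genotype, and the annotation was followed.

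Reads were summed over the wells of a group and divided by the group total (CPM), with exact intervals at 95% and a floor of 3 counts. These intervals take reads as independent, which mates and copies of amplified cDNA are not. Ratios are log2 of attached over _C wells within a genotype (no pseudocount). Genes below 50 CPM in both groups, or read in under 50% of the wells of the higher one, were left out, and those with a log2 ratio of at least 1 or at most -1 were called. The genes named are the 10 largest and 10 smallest ratios in both pairs (ranked by the ratio nearer to 0), the members of the marker and gene lists, and Ras85D. The example genes of the circulating genotype set were chosen after their values were seen. Members and lists were chosen with earlier results of these data known.

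Alternatives were wells with at most 10% mitochondrial reads and 200 genes, equal weight of wells, leaving out the deepest well of each group or each _C well, totals without the 37 mitochondrial and 138 rRNA genes, TMM factors, thinning to 195990 reads, other minimum levels and another fold. Leaving out the 6 wells under 1000000 reads was chosen after seeing the data. The sums of lists and ratios were tested on simulated data with known folds. TMM factors came from edgeR 4.0.16 in R 4.3.3, and all else was computed with scipy 1.17.1, pandas 2.3.3 and numpy 2.4.6 in Python 3.11.15 and plotted with matplotlib 3.10.9.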

Additional observations from a re-analysis of the deposited data

Results flagged for a closer look

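These values stood out by fixed rules. Among the 5 Ras_C wells, the lowest sum of the clotting and Idgf genes, 3280.4 CPM, lay farther from the other wells than Dixon's limit for 5 values allows, and among the 8 w1118_C wells the highest sum of neuronal genes, 56.693 CPM, did so too and belonged to a shallow well. With 50 sets of wells examined and chance giving about 1 such value in 20, these 2 values are no more than chance alone would give. The attached set also held 1 well without a genotype, which entered no comparison. It had 115332 glue reads, above the 9766 of the highest _C well.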

How the results depend on the processing

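The main limit is that no well is tied to an animal and the _C groups hold 4 to 8 wells, so that no value has an error between animals. Of 851 values of other lists and genes under the alternatives, 825 kept the sign and 9 were reversed. No paired analysis was possible because the labels give no replicate numbers shared between groups and no test was made.

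Genes higher in both pairs numbered 384, and 1264 at a minimum of 10 CPM, 3060 with no minimum and 250 at a log2 ratio of 2, with 367 to 476 when 1 _C well was left out. Genes lower in both numbered 263, and 173 with equal weight of wells, 171 without the deepest wells, 456 with TMM factors, 165 in thinned wells, 1031 with no minimum and 61 at a log2 ratio of 2, with 165 to 268 when 1 _C well was left out. Of the called genes, 252 higher and 242 lower ones were shared with those of TMM factors, and 313 higher and 111 lower ones with those found without the deepest wells. The cause of these shifts was not tested.

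The plasmatocyte log2 ratio of the Ras pair was 0.71 in wells passing the mitochondrial filter, 0.18 with equal weight, 0.37 without the deepest wells, 0.50 without mitochondrial and rRNA reads, -0.51 with TMM factors, 0.17 in thinned wells, 0.62 without shallow wells and 0.43 to 0.86 without 1 _C well. In the P35;Ras pair the same settings gave -1.03, -0.99, -1.27, -1.02, -0.91 and -0.98, and -1.10 to -0.88 without 1 _C well.

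The glue log2 ratio of the Ras pair was 6.61 with the filter, 4.71 with equal weight, 5.53 without the deepest wells, 5.83 without mitochondrial and rRNA reads, 4.82 with TMM factors, 4.70 in thinned wells, 5.99 without shallow wells and 5.36 to 6.25 without 1 _C well. In the P35;Ras pair it was 7.14 with the filter, 7.18 with equal weight, 7.21 without the deepest wells, 7.15 with TMM factors and 6.75 to 7.24 without 1 _C well.

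Values counted as reversed were the muscle genes of the Ras pair (1.53 with the filter, and -2.86 to 0.20 without 1 _C well), the trachea genes of the P35;Ras pair (-0.39 in thinned wells), the heat shock genes of the Ras pair (-0.018 with equal weight and -0.033 in thinned wells), Claspin (1.05 without the deepest wells, -4.95 to 0.88 without 1 _C well) and PGS1 (1.29 without the deepest wells, -4.45 to 1.13 without 1 _C well) in the Ras pair. This list does not hold every change of sign. Dividing cell genes of the Ras pair changed sign without Ras_C well 4, and housekeeping genes of that pair did so with TMM factors.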

Other observations

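Of the transcripts of further cell types, some separated most Ras wells from Ras_C wells and others rested on single wells. Muscle genes were 3.55-fold lower in Ras than in Ras_C wells (log2 -1.83), and this rested on Ras_C well 5 (0.20 without it). Neuronal genes summed to 131 CPM in Ras and 2.50 CPM in Ras_C wells, with 30 of 40 Ras wells above all Ras_C wells and none below, and to 74.9 CPM in P35;Ras and 59.7 CPM in p35Ras_C wells, where elav, a neuronal RNA-binding protein, came mostly from p35Ras_C well 2 (3.43 without it, 0.33 with it, on the log2 scale). The lamellocyte list, carried by the integrin subunit mys, had log2 ratios of 2.48 in the Ras pair (3.49 without Ras_C well 4), with 25 of 40 Ras wells above all Ras_C wells, and -0.14 in the P35;Ras pair. Salivary gland genes other than glue had log2 ratios of 2.89 (1.85 without Ras_C well 4, 4.07 without Ras_C well 5) and -0.08. In the second pair CrebA, a secretory transcription factor, had 84.1 CPM in P35;Ras and 457 CPM in p35Ras_C wells. Trachea genes had 20.8 CPM in Ras and 0.205 CPM in Ras_C wells, with 25 of 40 Ras wells above all Ras_C wells, and 0.978 CPM in P35;Ras and 0.0793 CPM in p35Ras_C wells, while w1118_C wells had 10.3 CPM, of which well 5 held 95.6% of the reads.

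The male dosage compensation RNAs roX1 and roX2 summed to 62.1 CPM in Ras and 734 CPM in Ras_C wells (log2 -3.56, and -0.39 without Ras_C well 4), and to 1482 CPM in P35;Ras and 321 CPM in p35Ras_C wells (log2 2.21, and 3.70 without p35Ras_C well 3). Among the 17 _C wells the sum ranged between 9.36 and 1898 CPM, so the wells of a group mixed high and low values. Housekeeping genes had log2 ratios of 0.23 in the Ras pair, which TMM factors turn to -0.89, and of -0.44 in the P35;Ras pair.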
